A study of Homo sapiens with 6 samples.

Results

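The baseline transcriptome of U87-MG cells was described from the 3 libraries labelled NC, the negative control, of the 6 libraries of the series. U87-MG is an established human glioblastoma line, and the labels give it as glioma with a wildtype genotype. Members were chosen by label alone, and the libraries made after knockdown of GRIK1 were not compared with them. Total RNA was used, and the study's methods give modified Eagle's medium with fetal bovine serum, penicillin and streptomycin for the cultures. Whether the NC cells received a control siRNA is not given in the sources used here. Nothing in the labels says that the 3 libraries came from separate cultures, so their spread may be technical. Being 1 line in culture, the cells lack the stroma, vessels and immune cells of a tumour.

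Glioblastoma is the most aggressive glioma of adults, and its cells carry features of the glial lineage to different degrees. Transcription profiles of these tumours have been grouped into proneural, classical and mesenchymal subtypes. Astrocytes are recognised by GFAP, an intermediate filament, and AQP4, a water channel. Mesenchymal cells are recognised by vimentin, fibronectin and fibrillar collagens, which build the cytoskeleton and the matrix around the cell.

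Counts summed to 11099909, 11123053 and 14006968 for NC libraries 1, 2 and 3. A gene with no count in a library could still be present at up to 0.214 to 0.270 CPM, a count scaled to the total of its library, the level that 3 counts give; these limits cover counting error only. NC library 3 stood apart from the other two. On the log2 scale of scaled CPM, over the 11350 genes with enough counts for a comparison, Pearson's r was 0.994 between NC libraries 1 and 2, 0.925 between 1 and 3 and 0.934 between 2 and 3. Genes, over which r was computed, are not replicates. Levels are therefore given for each library, or as a mean with its SD or a mean alone for genes described more briefly.

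Of 61806 genes in the table, 29607 had a count in at least 1 library and 20259 had a count in each. No count was found for 32199 genes. NC library 3 had the largest total and the fewest genes with a count, 23902 against 24959 and 24993. Thinned to the smallest total, 23111 genes would be expected to have a count in NC library 3. Expression is given in FPKM, the counts per kilobase of exon scaled to the library total in the way of CPM, and a gene is called expressed at a mean of at least 1 FPKM. By this rule 12689 genes were expressed. Among 19838 protein-coding genes 10348, or 52.2%, were expressed and 3968 had no count in any library. The median level of the expressed protein-coding genes was 6.64 FPKM, with quartiles of 3.21 and 14.7 FPKM. Levels of at least 10 FPKM were reached by 3991 genes, 100 FPKM by 347 and 1000 FPKM by 23. At the threshold of 1 FPKM, NC libraries 1 and 2 held 13189 and 13038 genes, and NC library 3 held 11801. There were 1179 genes at or over 1 FPKM in NC libraries 1 and 2 but not in NC library 3, and 289 in NC library 3 only.

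Counts were concentrated in few genes. The 100 most counted genes took 23.3%, 23.7% and 25.7% of the counts in NC libraries 1, 2 and 3. The number of genes needed for 50% of the counts was 817, 795 and 653. Protein-coding genes took 96.1%, 96.0% and 96.3% of the counts. Long intergenic noncoding RNAs took 0.814%, 0.831% and 0.533%, with 378 of 7479 genes expressed. Processed pseudogenes, which are reverse-transcribed copies of messenger RNAs and can share reads with their parent genes, took 0.340%, 0.352% and 0.574%.

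The most abundant RNAs were those of the mitochondrial genome. It encodes subunits of the respiratory chain and 2 ribosomal RNAs, and accounted for 13 of the 25 genes with the highest mean FPKM. MT-CO1, a subunit of cytochrome c oxidase, led with 10445, 10468 and 6411 FPKM in NC libraries 1, 2 and 3. NC library 3 was the low library for MT-CO1, and the other two were almost level. MT-RNR2, the large mitochondrial ribosomal RNA, ran the other way with 5869, 6542 and 7375 FPKM. MT-ND4 of respiratory complex I had 5121, 5047 and 2836 FPKM. In FPKM, 10 of these 13 genes were lowest in NC library 3. Together all genes of the mitochondrial genome took 5.54%, 5.68% and 4.16% of the counts. MT-ND5 and MT-ND6 lie next to each other on opposite strands, and the strand setting of the counting is not given in the sources used here, so reads at their border could not be assigned with certainty.

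The other 12 of the 25 genes were nuclear, and 9 of them were highest in NC library 3. Ferritin, the iron store of the cell, was represented by both of its chains. FTL, the light chain, had 4233, 4318 and 5654 FPKM, and FTH1, the heavy chain, had 2347, 2307 and 3996 FPKM. The actin-binding peptides TMSB10, at 3221, 3412 and 3927 FPKM, and TMSB4X, at 1058, 1106 and 1959 FPKM, followed the same order. CALR, a chaperone of the endoplasmic reticulum, was lower in NC library 3, with 2353, 2407 and 1481 FPKM. GAPDH, a glycolytic enzyme, was the steadiest of the 12 at 1697 ± 40.6 FPKM (SD, n = 3). VIM, which encodes vimentin, had 1043, 1076 and 825 FPKM. The remaining nuclear genes were RPS12, RPL41, S100A6, B2M and EEF1A1.

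**Figure D1:**
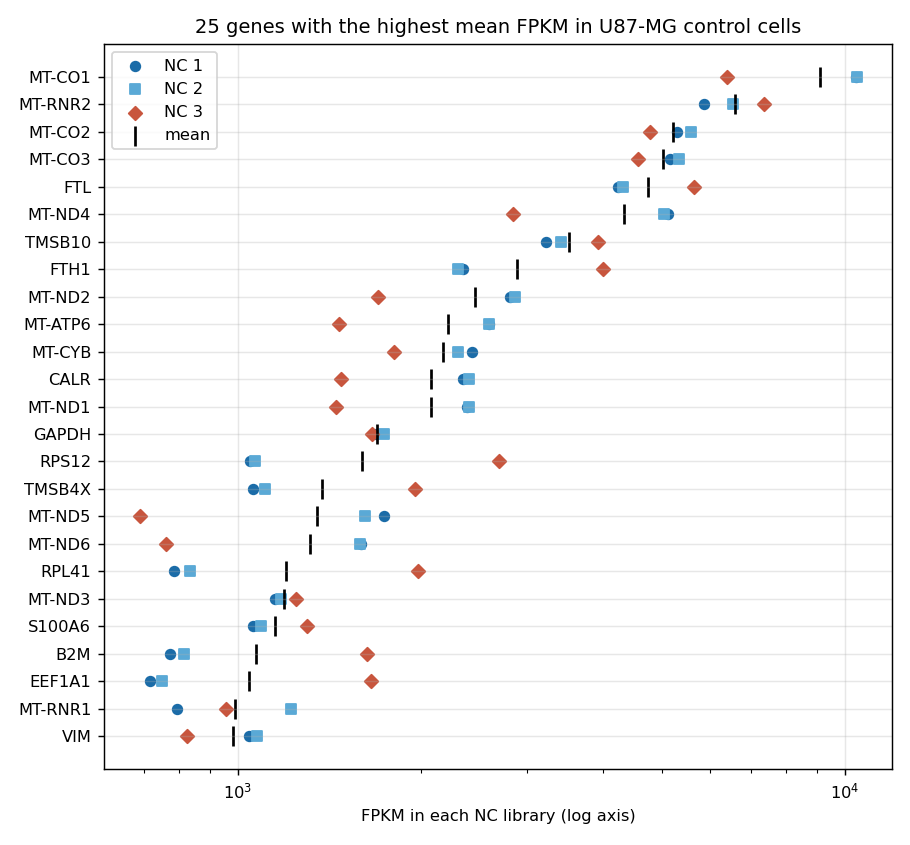
Genes with the highest mean FPKM, with the FPKM in each NC library on a log axis; circles, squares and diamonds stand for NC libraries 1, 2 and 3 and the bar for their mean. NC libraries 1 and 2 lie close together, while NC library 3 lies lower for 10 of 13 mitochondrial genes and higher for 9 of 12 nuclear genes.

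By raw counts, long genes entered the order. MT-CO1 was first with 178771, 179537 and 138467 counts, and took 1.61%, 1.61% and 0.989% of the counts. EEF1A1, the elongation factor that brings aminoacyl-tRNA to the ribosome, came next with 80038, 83843 and 233645 counts. In NC library 3 it, and not MT-CO1, was the most counted gene. Its exonic size in the table is 10063 bases, the sum over all annotated exons, so its FPKM is lower than it would be per length of a single transcript. The chaperones of the endoplasmic reticulum HSP90B1, at 590, 622 and 663 FPKM, and HSPA5, at 1014, 1050 and 541 FPKM, were also among the 10 most counted genes. So was TGFBI, a secreted matrix protein, at 685, 687 and 321 FPKM.

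Within several protein families the levels of the members were far apart. Of the type III intermediate filaments, VIM stood at 981 ± 137 FPKM (SD, n = 3), while PRPH had 0.160 FPKM, GFAP had 0.080 FPKM and DES had no count. Of the lactate dehydrogenases, which interconvert pyruvate and lactate, LDHA had 262, 274 and 358 FPKM and LDHB had 81.2, 86.7 and 191 FPKM, and LDHC had no count. PKM, a pyruvate kinase, had 419, 410 and 296 FPKM, against a mean of 0.0267 FPKM for the liver and red cell form PKLR. The cytoplasmic actins had 750 ± 23.5 FPKM (SD, n = 3) for ACTG1 and 724, 719 and 421 FPKM for ACTB, and the smooth muscle actin ACTA2 had 13.6 FPKM. MYH9 was the nonmuscle myosin heavy chain in use, with 56.4, 52.5 and 17.3 FPKM, while MYH10 had 0.180 FPKM. Among the beta tubulins, TUBB, TUBB4B and TUBB6 had 102, 94.0 and 40.4 FPKM. The neuronal TUBB3 had 0.643 FPKM.

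Most mesenchymal markers were expressed, and a smaller share of the astrocyte, oligodendrocyte, neural stem cell and neuronal markers was. Of 15 mesenchymal markers 13 were expressed, and 6 exceeded 100 FPKM. Beside VIM and TGFBI these included COL1A2, a chain of type I collagen, at 157, 154 and 44.2 FPKM, SPARC, a matrix glycoprotein, at 132, 135 and 80.3 FPKM, and TNC, the matrix protein tenascin C, at 156, 144 and 24.8 FPKM. Each of these 3 was lowest in NC library 3. The exceptions in the list were COL3A1, with 15, 16 and 105 counts, and THY1, with 0, 0 and 1 counts. For comparison, 52.2% of all protein-coding genes were expressed.

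Astrocyte markers were split, with 5 of 13 expressed. GJA1, the gap junction protein connexin 43, was the highest with 79.4, 80.0 and 69.4 FPKM. ALDOC, an aldolase, had 10.9 ± 1.95 FPKM (SD, n = 3). GLUL, glutamine synthetase, had 5.15 FPKM, the glutamate transporter SLC1A3 had 3.19 FPKM and the transcription factor SOX9 had 3.60, 3.18 and 1.45 FPKM. Both astrocyte markers named at the outset were near or at 0. GFAP had 13, 11 and 8 counts, S100B had 0, 0 and 1 counts, and AQP4 and ALDH1L1 had no count.

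Few members of the other neural lists were expressed. Of 14 markers of oligodendrocytes and their precursors, CNP, at 7.26 ± 0.495 FPKM (SD, n = 3), and CSPG4, a proteoglycan, at 8.30, 7.60 and 1.67 FPKM, were expressed. OLIG2, a transcription factor of this lineage, had 30, 15 and 19 counts. OLIG1, NKX2-2, GPR17, MOG and MAG had no count. None of 11 neural stem cell markers was expressed by the rule of a mean of at least 1 FPKM. FABP7 was the highest, with 0.62, 0.83 and 1.32 FPKM in NC libraries 1, 2 and 3. PAX6 had 59, 61 and 64 counts, but 0.25 FPKM, since FPKM divides by its exonic size of 20639 bases. SOX2, a transcription factor of neural progenitors, had 0, 1 and 0 counts, and NES, an intermediate filament of progenitors, had 0.467 FPKM. Of 16 neuronal markers 3 were expressed, namely GAD1, which makes GABA, at 3.83, 3.64 and 1.57 FPKM, MAP2, a microtubule protein, at 2.57 ± 0.0208 FPKM (SD, n = 3), and SNAP25, a protein of vesicle fusion, at 1.91 FPKM. GAD2, DCX, ELAVL4 and SLC17A6 had no count.

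Markers of other tissues gave little signal. In bulk RNA of a cell line, fewer cells with a transcript and less of it per cell cannot be told apart. Of 12 microglia and macrophage markers 3 were expressed, with CD68, a lysosomal protein, the highest at 2.80 FPKM, and 5 had no count, among them AIF1 and TYROBP. Of 8 lymphocyte markers CD2 alone was expressed, at 1.11 FPKM, and CD3D, CD3E, CD8A and MS4A1 were among those with no count. Of 9 endothelial markers KDR, a receptor for VEGF, alone was expressed, at 2.06 FPKM, and CDH5 and CLDN5 had no count. ACTA2, NOTCH3 and TAGLN were expressed among 9 pericyte and smooth muscle markers. KRT8 and EPCAM were expressed among 11 epithelial markers, at 3.70 and 1.20 FPKM. None of 5 erythroid and 6 striated muscle markers was expressed. MITF was the single expressed melanocyte marker of 5, at 1.13 FPKM.

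**Figure D2:**
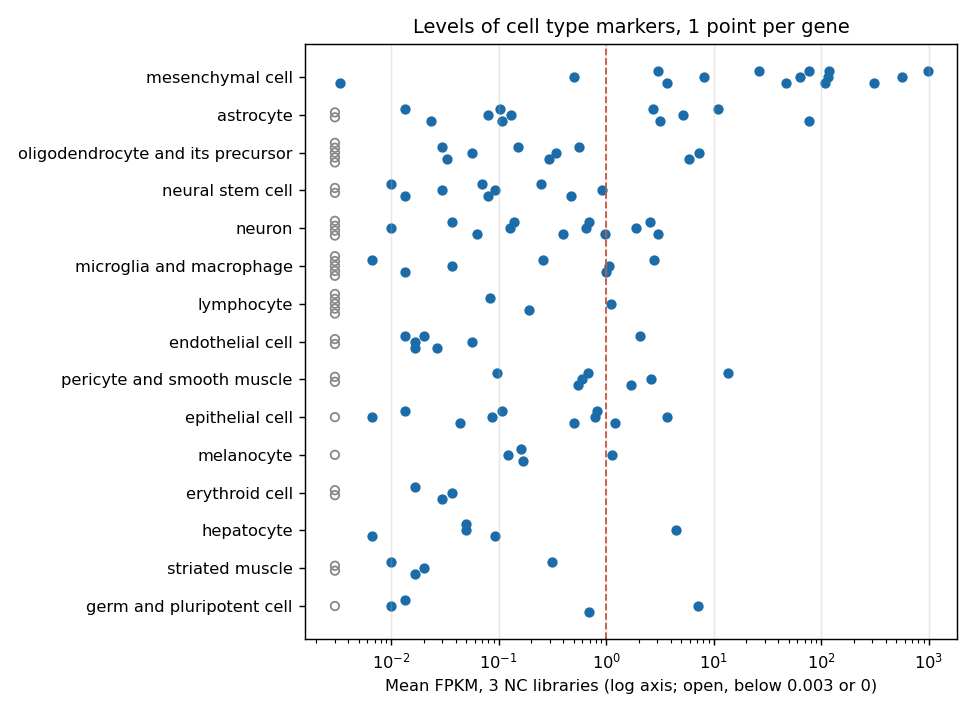
Mean FPKM over the 3 NC libraries of each cell type marker on a log axis, with 1 point per gene, 1 row per list and a dashed line at 1 FPKM. Mesenchymal markers lie mostly to the right of the line, with 13 of 15 expressed, and no neural stem cell, erythroid or striated muscle marker lies beyond it.

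Stretches of promoter are shown for abundant and silent genes, so that the sequence before the start of transcription can be read beside the level. Each run holds the 150 bases before a RefSeq start on GRCh38.p14, with CpG dinucleotides in capitals. TMSB10 (chr2:84905506-84905655, plus strand, 3520 FPKM) held 20 CpG, GAPDH (chr12:6535114-6535263, plus strand, 1697 FPKM) held 16, AQP4 (chr18:26865804-26865953, minus strand, no count) held 1 and TYR (chr11:89177725-89177874, plus strand, no count) held 2. The GAPDH gene begins at position 6534512, so its run lies inside the gene, before an internal RefSeq start. It is not the sequence before the first base of the gene. TYR encodes tyrosinase, the pigment enzyme of melanocytes.
TMSB10: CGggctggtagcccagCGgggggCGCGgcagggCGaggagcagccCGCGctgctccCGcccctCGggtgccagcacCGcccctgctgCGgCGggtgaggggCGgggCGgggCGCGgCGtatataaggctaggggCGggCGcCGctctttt
GAPDH: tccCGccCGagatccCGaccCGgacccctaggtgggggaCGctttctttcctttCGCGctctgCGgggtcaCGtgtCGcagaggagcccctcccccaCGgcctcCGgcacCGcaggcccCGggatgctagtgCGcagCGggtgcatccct
AQP4: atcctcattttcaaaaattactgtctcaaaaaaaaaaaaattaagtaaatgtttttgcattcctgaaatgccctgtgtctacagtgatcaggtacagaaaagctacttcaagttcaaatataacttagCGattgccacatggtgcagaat
TYR: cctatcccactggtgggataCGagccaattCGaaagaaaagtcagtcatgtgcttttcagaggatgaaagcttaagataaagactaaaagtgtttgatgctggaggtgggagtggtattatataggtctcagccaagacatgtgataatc
A RefSeq promoter was matched for 15240 of 19825 nuclear protein-coding genes, or 76.9%. That is under the 80% needed to compare a property between sets of genes, so no comparison of CpG between levels of expression is reported. The 4 stretches were picked by name from abundant and silent genes. They are examples only and carry no result about CpG and level.

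Of the lists of the glioblastoma subtypes, the mesenchymal list was expressed in full. All 11 genes of the mesenchymal subtype were expressed, against 52.2% of all protein-coding genes, and 9 of them reached 10 FPKM. LGALS1, the lectin galectin 1, was the highest at 688, 710 and 1057 FPKM. TIMP1, an inhibitor of matrix metalloproteinases, had 411, 410 and 216 FPKM, and CD44, a receptor for hyaluronan, had 69.1, 71.6 and 50.8 FPKM. CEBPB, a transcription factor, had 131 ± 13.2 FPKM (SD, n = 3). CHI3L1, a secreted glycoprotein often used as the marker of this subtype, was the lowest of the list at 3.46, 3.53 and 1.70 FPKM. Of 9 proneural genes the adhesion molecule NCAM1 alone was expressed, with 578, 567 and 309 counts. Of 10 classical genes 4 were expressed, led by EGFR, the receptor of epidermal growth factor, with 2726, 2651 and 1481 counts. These lists share genes with the marker lists, TGFBI and CD44 among them, so the counts are not independent of each other.

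Of 21 genes commonly altered in glioblastoma 15 were expressed, against 52.2% of all protein-coding genes. IDH1, an isocitrate dehydrogenase, had 56.5, 58.4 and 81.8 FPKM, and the cell cycle kinase CDK4 had 40.9, 39.4 and 81.1 FPKM. Both were highest in NC library 3. The 6 that were not expressed were MGMT, CDKN2A, CDKN2B, MTAP, TERT and PDGFRA. MGMT, a DNA repair enzyme, had no count in any library. TERT, the catalytic subunit of telomerase, had 6, 5 and 1 counts, and PDGFRA, a growth factor receptor, had 3, 2 and 6 counts. A table of expression holds no sequence, so it does not tell whether an expressed gene is mutated.

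CDKN2A, CDKN2B and MTAP are neighbours on chromosome 9, and none of them was expressed. CDKN2A and CDKN2B encode inhibitors of CDK4 and CDK6, and MTAP encodes an enzyme of methionine salvage. Their counts were 1, 1 and 2 for CDKN2A, 0, 2 and 1 for CDKN2B and 1, 0 and 7 for MTAP. The nearest expressed protein-coding genes on either side were SLC24A2, ending at position 19789037 of chromosome 9 (GRCh38), and TUSC1, starting at position 25676969. Between them lay 27 protein-coding genes over 5.89 Mb. That none of these was expressed follows from how the ends were set. The highest mean in this interval was 0.170 FPKM, that of ELAVL2, and 20 of the 27 had no count. The interval holds 16 type I interferon genes, which are silent in most unstimulated cells. It also holds MLLT3, FOCAD and KLHL9, which had at most 2 counts in any library. The flanking genes had 227, 244 and 182 counts for SLC24A2 and 7.81, 8.83 and 13.3 FPKM for TUSC1.

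All 15 proliferation genes were expressed, against 52.2% of all protein-coding genes. PCNA, the sliding clamp of DNA replication, was the highest at 46.1, 43.4 and 58.0 FPKM. MKI67, which encodes the proliferation antigen Ki-67, had 2.27, 2.51 and 1.56 FPKM, and TOP2A, a topoisomerase of dividing cells, had 7.64 ± 0.506 FPKM (SD, n = 3).

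Glutamate receptors, the family of the gene targeted in the study, were almost silent. For comparison, 52.2% of all protein-coding genes were expressed. Ionotropic receptors are ligand-gated channels and metabotropic receptors couple to G proteins. Of 18 ionotropic subunits GRIA3, of the AMPA class, alone was expressed, at 1.30, 1.30 and 0.800 FPKM. GRIK1, a kainate receptor subunit, came next with 18, 9 and 8 counts, or 0.380, 0.190 and 0.130 FPKM. GRIK2 had 44, 39 and 38 counts, but 0.127 FPKM, since FPKM divides by its greater exonic size. GRIN1, the subunit needed in every NMDA receptor, had no count, as did GRIA1, GRIK3 and GRID1. None of 8 metabotropic receptors was expressed. Of 19 GABA-A receptor subunits GABRQ and GABRR2 were expressed, at 2.84 and 2.26 FPKM.

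Families of secreted, matrix and surface proteins held members on both sides of 1 FPKM. Among all protein-coding genes 52.2% were expressed. Of 23 matrix metalloproteinases 7 were expressed. MMP2, a gelatinase, had 687, 662 and 339 FPKM, and MMP14, its activator at the cell membrane, had 299, 299 and 102 FPKM. CXCL8, the chemokine interleukin 8, ran in the opposite direction with 535, 560 and 1029 FPKM, while CXCL2 had 121 ± 25.6 FPKM (SD, n = 3). Of 38 chemokines of the CXC and CC families 7 were expressed and 20 had no count. Of 44 collagen genes 17 were expressed, led by COL6A2 at 189, 176 and 69.0 FPKM. The S100 family, small calcium-binding proteins, had 8 of 20 members expressed, with S100A6 at 1149 ± 130 FPKM (SD, n = 3). MT2A, a metallothionein that binds zinc and copper, had 346 ± 24.6 FPKM (SD, n = 3). ITGB1, the beta 1 integrin chain, had 74.0, 74.6 and 139 FPKM. In its family 14 of 27 members were expressed, a share near that of all protein-coding genes. Of 39 HOX genes, which set position along the body axis, 17 were expressed, with HOXD10 the highest at 11.5, 11.6 and 6.63 FPKM.

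Families of specialised tissues held few or no expressed members. None of 381 olfactory receptor genes was expressed and 355 had no count. All 17 type I interferon genes had no count, and so did 90 of 94 keratin-associated protein genes of hair and 17 of 19 late cornified envelope genes of skin. Of 39 beta-defensin genes 35 had no count. KRTAP1-5, at 1.17 FPKM, and DEFB131B, at 1.01 FPKM, were the expressed members of their families. Of 55 keratin genes 5 were expressed and 27 had no count. Stretches of at least 8 neighbouring protein-coding genes without a count were found 52 times and held 739 of the 3968 such genes. The longest ran from OR4B1 to OR5AK2 on chromosome 11 (chr11:48216810-56989843), with 64 genes of which 56 were olfactory receptors. The next ran from CLDN8 to KRTAP19-8 on chromosome 21 (chr21:30214006-31038476), with 33 keratin-associated protein genes among 34. Over chromosomes 1 to 22 and X, the share of protein-coding genes expressed ran from 42.1% on chromosome X and 42.9% on chromosome 21 to 57.5% on chromosome 10. At the other end were the core machines of the cell. All 79 cytosolic ribosomal protein genes, 77 of 78 mitochondrial ribosomal protein genes and 36 of 39 proteasome subunits were expressed. Of 22 protein-coding genes that the table assigns to the mismatch repair pathway, 21 were expressed.

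The spread between libraries was small for NC libraries 1 and 2 and large for NC library 3. The biological coefficient of variation, the spread between libraries beyond counting error as edgeR estimates it over expressed genes, was 0.271. It was 0.0439 without NC library 3, and 0.320 and 0.341 without NC library 1 or 2. Between NC libraries 1 and 2, 92.5% of the compared genes lay within 1.25-fold of each other, against 33.6% between 1 and 3 and 35.4% between 2 and 3. The counts of NC libraries 1 and 2 differed by a mean chi-square of 2.22 per gene over 17290 genes, where read sampling alone gives about 1. For the pairs with NC library 3 it was 85.7 over 17042 genes and 76.6 over 16987. These sets were wider than the compared genes, and counts were set against library totals without further scaling.

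Each library was set against the mean of the other two on the log2 scale of CPM scaled by TMM, a normalization that leaves out extreme genes, and genes past 2-fold were counted. With 1 library on one side there is no test. NC library 1 had 27 genes past 2-fold higher, which is 0.238% of the compared genes, and 65 lower, or 0.573%. NC library 2 had 12 higher, or 0.106%, and 38 lower, or 0.335%. NC library 3 is in the reference of both, and 13 genes were past 2-fold between NC libraries 1 and 2 alone. NC library 3 had 627 higher, or 5.52%, and 923 lower, or 8.13%. The split in NC library 3 depended on the scaling, with 204 higher and 1438 lower when only the total count was used. The median of all compared genes in NC library 3 was 0.11 with TMM scaling, 0.15 with median-of-ratios scaling and -0.10 with the total count, and the medians of gene groups below are read against the first of these. NC library 3 was the highest or the lowest of the 3 for 93.3% of the compared genes.

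**Figure D3:**
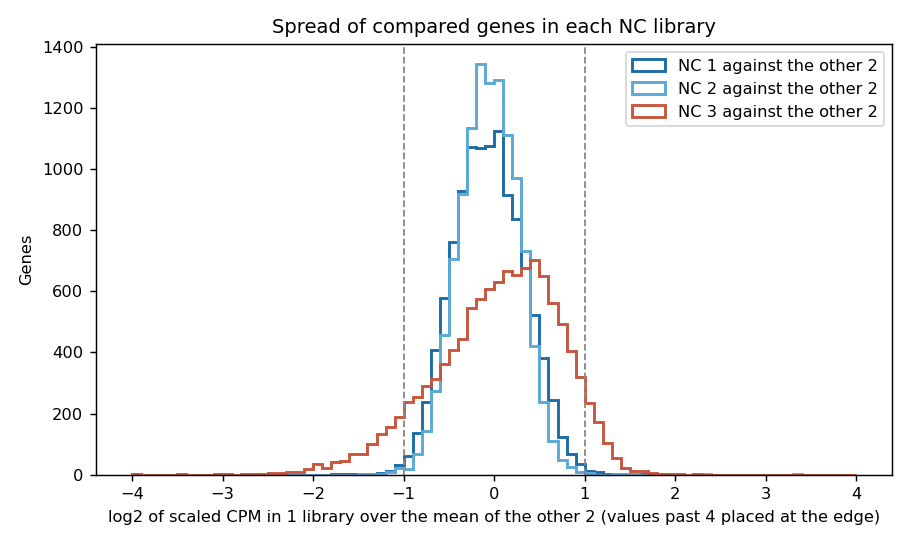
Histogram of the log2 of scaled CPM in each NC library over the mean of the other 2, for 11350 compared genes, with dashed lines at 2-fold and values past 4 placed at the edge. NC libraries 1 and 2 form narrow peaks, and NC library 3 has broad flanks, with 627 genes beyond the right line and 923 beyond the left.

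Ribosomal protein genes were higher in NC library 3 as a group. All 79 were above the other libraries, as were 6389 of the 11350 compared genes. Of the 79 genes 41 were past 2-fold higher, against 5.52% of all compared genes, and none was past 2-fold lower. Their median log2 was 1.03 with TMM scaling and 0.82 with the total count. They took 5.21%, 5.47% and 9.33% of the counts. RPS12 had 1046, 1067 and 2694 FPKM, RPL41 had 783, 835 and 1978 FPKM, and the smallest difference in the group was that of RPL7A at 702, 747 and 863 FPKM. EEF1A1 followed the same order, with 717, 749 and 1658 FPKM. Many of these genes have processed pseudogenes, and 179 compared processed pseudogenes had a median log2 of 0.84 in NC library 3. RPL21P16, a pseudogene of RPL21, had 90, 120 and 464 counts.

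Messenger RNAs of the translation machinery commonly start with a C followed by a run of pyrimidines, a feature known as the terminal oligopyrimidine motif. The 10 bases before and the 10 after the RefSeq start are shown for 4 such genes, with the first 5 transcribed bases in capitals. These were RPS12 (chr6:132814559-132814578, plus strand), RPL41 (chr12:56116623-56116642, plus strand), EEF1A1 (chr6:73521023-73521042, minus strand) and TPT1 (chr13:45341174-45341193, minus strand), which encodes the translationally controlled tumour protein.
RPS12: cggatgaggcCTCTTtccct
RPL41: cttcgcctttCTCTCggcct
EEF1A1: cgtgaacgttCTTTTtcgca
TPT1: ctgagtcggcCTTTTccgcc
A start of C followed by 4 bases that are each C or T, on the transcribed strand, was found for 44 of the 63 ribosomal protein genes with a matched promoter, and for 4.71% of all matched promoters. Since 79.7% of the ribosomal protein genes were matched, under the 80% needed, both values are description. No difference between the sets is concluded from them.

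With TMM scaling, the median log2 in NC library 3 was 0.11 over all compared genes. It was above 0 in 234 of the 283 pathways with at least 20 compared genes. Pathways share genes, and the median of all compared genes was -0.10 with the total count, so the place of 0 depends on the scaling. The mitochondrial ribosomal protein genes of the nucleus had a median log2 of 0.75, with 13 of 77 past 2-fold higher, against 5.52% of all compared genes, and none lower. Proteasome subunits had a median of 0.61, with 3 of 36 past 2-fold higher, a share near the 5.52% of all compared genes, and none lower. In the pathways assigned by the table, oxidative phosphorylation had a median of 0.57, with 23 of 121 compared genes past 2-fold higher and 3 lower, against 5.52% and 8.13% of all. HSPA8, a constitutive chaperone of the cytosol, was among the 5 genes furthest above, with 117, 120 and 427 FPKM. B2M, the light chain of HLA class I, had 771, 814 and 1633 FPKM.

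Collagens and other matrix genes lay in the opposite direction. Of 17 compared collagen genes 14 were past 2-fold lower in NC library 3, against 8.13% of all compared genes, and none was past 2-fold higher. Their median log2 was -1.60 with TMM scaling and -1.81 with the total count. COL1A1 had 106, 98.6 and 26.9 FPKM, COL6A3 had 97.2, 89.9 and 20.3 FPKM and COL7A1 had 63.4, 59.7 and 9.55 FPKM. FN1, which encodes fibronectin, had 66.7, 62.9 and 11.6 FPKM, with a log2 of -2.27, and TNC had a log2 of -2.39. In the pathway of contacts between matrix and receptors, 19 of 53 compared genes were past 2-fold lower and 2 were past 2-fold higher. Not all matrix genes moved this way. LUM and DCN, small proteoglycans of connective tissue, had 193, 174 and 448 counts and 329, 377 and 748 counts. COL3A1 was also highest in NC library 3, with 15, 16 and 105 counts and a log2 of 2.55. Its mean of 0.507 FPKM was below 1, so it was not among the 17 compared collagen genes.

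The 13 protein-coding genes of the mitochondrial genome had a median log2 of -0.52 in NC library 3, with 1 of them, MT-ND5, past 2-fold lower, a share near the 8.13% of all compared genes. They were not uniform, since MT-ND3 was at 0.31, MT-CO2 at 0.02 and MT-CO3 at 0.01. Under the total count MT-CO2 and MT-CO3 were below 0, as their FPKM show.

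**Figure D4:**
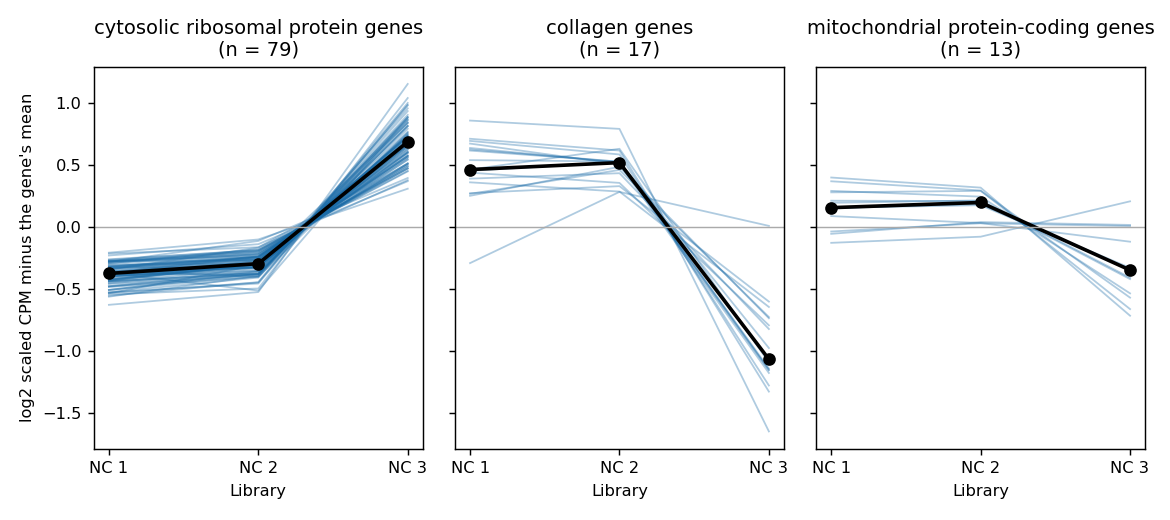
The log2 scaled CPM of each gene minus its mean over the 3 NC libraries, for cytosolic ribosomal protein genes, collagen genes and protein-coding genes of the mitochondrial genome, with 1 thin line per gene and the median as a thick line. All 79 ribosomal protein lines are highest in NC library 3, 14 of 17 collagen genes are past 2-fold lower there, and the mitochondrial lines are mixed.

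The ratio of NC library 3 to the others also followed properties of the transcripts. Other protein-coding genes were ordered by the GC content of their longest transcript and divided into 5 equal groups, which left out ribosomal protein and mitochondrial genes. The median log2 in NC library 3 went from 0.45 in the group with the lowest GC, around 38.2%, through 0.12 in the middle group to -0.33 in the group with the highest GC, around 61.1%. By length of the longest transcript it went from 0.40 in the shortest group, around 1661 bases, to -0.03 in the longest. By mean FPKM it went from -0.08 in the lowest group to 0.38 in the highest. NC library 3 is part of that mean, so the grouping by FPKM is not independent of the ratio. The share of genes past 2-fold lower was 1.08% in the lowest GC group and 17.0% in the highest. NC libraries 1 and 2 had smaller changes over GC, from -0.28 to 0.19 and from -0.21 to 0.12, which in part mirror NC library 3 because it is in their reference. The ribosomal protein genes had a median transcript of 1857 bases with 48.0% GC, and the compared collagen genes had 6483 bases with 54.6% GC. The part of GC content and length in the values of these groups was not tested.

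**Figure D5:**
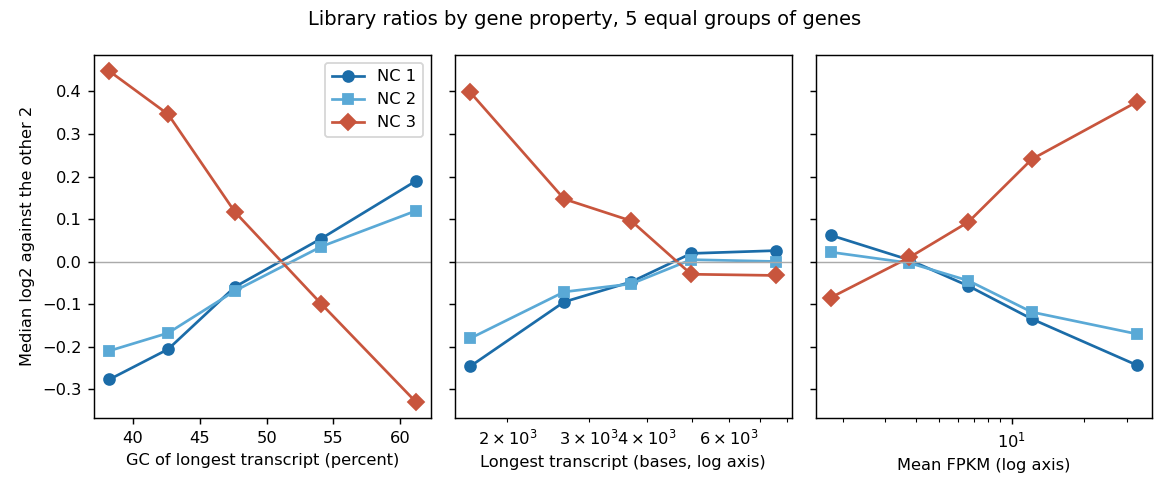
Median log2 of each NC library against the other 2 in 5 equal groups of protein-coding genes, ordered by GC content, by length of the longest transcript and by mean FPKM, each placed at the median of its group. NC library 3 goes from 0.45 to -0.33 with rising GC and from 0.40 to -0.03 with rising length, and from -0.08 to 0.38 with rising FPKM. The mean FPKM includes NC library 3, so that grouping is not independent of the ratio.

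Genes often used as internal references were not all steady. GAPDH had a log2 of 0.16 in NC library 3 and TBP, a general transcription factor, of 0.00, with 285, 295 and 316 counts. Both were below 0 under the total count. ACTB was lower at -0.57 and POLR2A, the largest subunit of RNA polymerase II, was past 2-fold lower at -1.39. B2M at 1.25, TFRC, the transferrin receptor, at 1.23, RPLP0 at 1.22 and PPIA, a prolyl isomerase, at 1.06 were past 2-fold higher, although PPIA was short of 2-fold under the total count. Thus 4 of these 15 genes were past 2-fold higher in NC library 3, against 5.52% of all compared genes, and 1 was lower, a share near the 8.13% of all. Over the 3991 genes that reached 10 FPKM, the smallest SD of log2 scaled CPM belonged to PLP2, at 0.00378, with 1649, 1635 and 1781 counts. RLF, CMTM3, DERL1, EIF3A, SNAPC2, LRRFIP1, PSMB10 and PCIF1 were among those that followed. The 10 named by this rule are the smallest values in libraries that also set the scaling, and are given as a description.

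Small noncoding RNAs and ribosomal RNA were among the genes furthest apart between libraries. RNA5-8SN1, a copy of the 5.8S ribosomal RNA, had 190, 262 and 1 counts, and RNA5-8SN3 had 137, 178 and 2 counts. These are near-identical copies among which reads can be split, so each count is uncertain. SNORD3A, the U3 small nucleolar RNA, had 26, 218 and 62 counts and RN7SL1, the RNA of the signal recognition particle, had 570, 1577 and 641 counts, both highest in NC library 2. Among the protein-coding genes furthest below in NC library 3 were CCDC154, with 74, 67 and 6 counts, and CDHR5, with 80, 118 and 9 counts.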

How the data were processed

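RNA of U87-MG cells was sequenced by the authors after trizol extraction and preparation with the VAHTS Universal V8 kit. Their processing notes name cutadapt 1.9.1, HISAT2, HTSeq and GRCh38, without roles. The annotation release and the strand setting are not given in the sources used here. Whole-number counts per gene were deposited for each library. The FPKM values deposited by the authors equal the counts per kilobase of exonic size scaled to the library total, to the last decimal, in 100% of values. Gene types, transcript lengths and GC were taken from GENCODE 29, which holds 58254 of the 61806 genes. Promoters came from RefSeq (GRCh38.p14).

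From the counts, TMM factors and the common dispersion were computed with edgeR 4.0.16 in R 4.3.3, and median-of-ratios factors with DESeq2 1.42.0. CPM were scaled and 0.1 was added before log2. Genes with a mean FPKM of at least 1 and a mean count of at least 30 were compared. A group of 1 kind has no contrast, so no test was run. The steps were tested on simulated data.

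The members and lists were chosen with earlier results of these data known. Genes were named by rule: the 25 with the highest mean FPKM, the 10 most counted, the 5 furthest above and below in each library, the 10 with the smallest SD, GRIK1 and members of marker and pathway lists. Members of other families were named after their values were seen. Some genes these rules name are not reported here.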

Additional observations from a re-analysis of the deposited data

How the results depend on the processing

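Of 91 values recomputed for 15 results, 58 moved by less than the limit set for them and 33 by more. No paired analysis was possible because only 1 group is described. Expressed genes numbered 21844 at a mean of at least 0.1 FPKM. The share of the 100 most counted genes was 21.4% without mitochondrial genes and 37.6% of summed FPKM, and mitochondrial genes took 17.0% of summed FPKM. Past 1.5-fold in place of 2-fold, genes numbered 543 higher and 985 lower in NC library 1, 236 and 596 in NC library 2 and 2496 and 2072 in NC library 3. With the total count they were 44 and 26 in NC library 1, 16 lower in NC library 2 and 204 and 1438 in NC library 3. At a mean of at least 10 FPKM they were 2 and 30, 7 and 9, and 396 and 174. Each library was also set against 1 other library, an alternative chosen after seeing the data. For NC library 1 genes past 2-fold then ran from 3 to 999 higher and 10 to 761 lower. For NC library 2 they ran from 10 to 869 higher and 3 to 575 lower. The smaller end of each range was that without NC library 3. Expressed neural markers, 10 of 54, numbered 26 at 0.1 FPKM and 5 at 5 FPKM, and microglia, lymphocyte and endothelial markers, 5 of 29, numbered 0 at 5 FPKM, and 3 to 4 with 1 library left out, 3 of them without NC library 3. The coefficient of variation was 0.0439 to 0.341 with 1 library left out. The cause of these shifts was not tested.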

Other observations

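Some markers of distant tissues were expressed in these cells, and these genes were picked after their values were seen. DAZL, an RNA-binding protein of germ cells, had 246, 309 and 361 counts, or 6.23, 7.81 and 7.25 FPKM, while the germ cell gene DDX4 had 0, 1 and 1 counts and NANOG had 2, 0 and 0. SERPINA1, the liver's antitrypsin, had 5.46, 4.05 and 4.01 FPKM, while ALB had 2, 3 and 1 counts. KRT79, a keratin, had 77.1, 78.6 and 27.1 FPKM, while KRT14 had no count, KRT5 had 1, 0 and 0 counts and KRT8 had 3.70 FPKM. Of 24 bitter taste receptor genes 3 were expressed, led by TAS2R5 at 2.82 FPKM. DAZL, SERPINA1, KRT79 and TAS2R5 were counted in all 3 libraries.

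Genes counted in 1 library alone numbered 2014 in NC library 1, 2027 in NC library 2 and 1578 in NC library 3. The highest such count was 10 in NC library 1, 7 for FUT8-AS1 in NC library 2 and 10 for SULF1, a sulfatase of the cell surface, in NC library 3.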
